A study of Mus musculus with 6 samples.

Results

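RGS proteins (regulators of G-protein signalling) were followed in aorta with and without endothelial nitric oxide synthase (eNOS). The 10 genes described are Rgs1, Rgs2, Rgs3, Rgs4, Rgs5, Rgs10, Rgs13, Rgs16, Rgs18 and Rgs19, taken by symbol from the array annotation, with the brightest probe set (highest mean over the 6 arrays) standing for each gene. All 10 were measured, and all 10 passed the filter on dim signals (mean over the 6 arrays) among the 18008 genes tested. Rgs13 passed it only through its wild-type values. Total RNA from aorta of eNOS-deficient mice (samples 11, 15 and 19) and of age-matched wild-type mice (samples 2, 3 and 5) was hybridised to 1 Affymetrix array per sample. The labels used here do not give the strain, sex, age, targeted allele and any pooling of animals. Nothing in them says that the arrays of a genotype are separate animals, so each p-value reflects the spread among arrays, which may be technical. Signals are log2 values after robust multi-array averaging (RMA), so a difference of 1 is a doubling, and 3 arrays per genotype limit the precision.

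A G-protein-coupled receptor switches on the alpha subunit of its G protein by loading it with GTP. RGS proteins speed the hydrolysis of that GTP and so shorten the signal of the receptor. In the vessel wall, receptors for angiotensin II, endothelin, noradrenaline and serotonin use this route to contract smooth muscle, and RGS2, RGS4 and RGS5 are known as its brakes there. Nitric oxide made by eNOS raises cyclic GMP, and the kinase that cyclic GMP activates is known to phosphorylate RGS2 and strengthen its action on Gq. RGS1, RGS13 and RGS18 are known mainly from lymphocytes, mast cells and platelets, and RGS1 limits the responses of lymphocytes to chemokines. RGS10 belongs to the R12 subfamily and RGS19 to the RZ subfamily, whereas the other 8 genes encode members of the R4 subfamily.

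Promoter sequence is shown for the genes whose probe sets separated the genotypes: Rgs2 and Rgs13, which lie next to each other on chromosome 1, and Rgs5, whose dimmer probe set did so. Each line gives the 250 bases before the RefSeq start site, 5′ to 3′ on the strand of the gene (build GRCm38.p6). Capitals mark matches, on either strand, to TATAAA for the TATA box, TGACG for the core of a cyclic AMP response element, TGANTCA for AP-1, CCAAT for NF-Y, GGGCGG for Sp1 family factors, and the CArG box of serum response factor.
Rgs2, minus strand, chr1:144004150-144004399: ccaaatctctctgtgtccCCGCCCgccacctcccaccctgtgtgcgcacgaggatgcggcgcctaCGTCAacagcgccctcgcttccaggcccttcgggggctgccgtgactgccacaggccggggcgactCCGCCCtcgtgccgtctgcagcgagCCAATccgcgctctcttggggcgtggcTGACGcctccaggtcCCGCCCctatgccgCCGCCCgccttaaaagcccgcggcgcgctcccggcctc
Rgs13, minus strand, chr1:144177373-144177622: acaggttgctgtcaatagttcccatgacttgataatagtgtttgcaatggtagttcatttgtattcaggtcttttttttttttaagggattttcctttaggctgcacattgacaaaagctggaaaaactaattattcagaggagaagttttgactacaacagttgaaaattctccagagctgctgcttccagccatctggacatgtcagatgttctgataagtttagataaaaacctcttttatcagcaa
Rgs5, plus strand, chr1:169655251-169655500: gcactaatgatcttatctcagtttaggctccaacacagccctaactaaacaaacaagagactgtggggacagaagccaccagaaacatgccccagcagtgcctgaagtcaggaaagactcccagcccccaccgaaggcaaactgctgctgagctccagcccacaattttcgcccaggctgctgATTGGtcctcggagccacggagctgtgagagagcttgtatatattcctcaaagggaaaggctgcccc

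The Rgs2 window held 4 matches to the GC box, 2 to TGACG and 1 to CCAAT, and 72.4% of its bases were G or C. The Rgs13 window held none of the 6 motifs and was 36% G or C, against a median of 52.4% over 32851 RefSeq promoter windows of the same length. Rgs5 had a single CCAAT match, read on the opposite strand. Over all windows a match to GGGCGG was found in 32.7%, to CCAAT in 33.8%, to TGACG in 17.8%, to TATAAA in 12.4%, to TGANTCA in 6.75% and to the CArG box in 1.47%. These matches are letters in a window and are not evidence of binding. The table held promoters for 8 of the 10 genes. Rgs1 and Rgs18 were the others.

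The array data differed between genotypes beyond the RGS genes, in ways that touch what follows. Nos3, the targeted gene, gave 7.13, 7.39 and 7.27 on eNOS-deficient 11, 15 and 19 and 7.99, 7.88 and 7.36 on wild type 2, 3 and 5, with overlap of the groups (limma adjusted p = 0.399), and the position of its probes relative to the deletion is not given here. Smooth muscle markers had a list mean of 9.15 to 9.69 over the 6 arrays, with none of 11 genes under the dim level of 4.38. Adipocyte markers averaged 11.15 to 11.46. Skeletal muscle markers averaged 9.13 to 11.61, with their highest means on eNOS-deficient 11 and wild type 5. Squamous epithelium markers averaged 5.13 to 5.41 in eNOS-deficient aorta and 6.14, 5.55 and 8.15 on wild type 2, 3 and 5. Y-linked genes averaged 7.76, 4.71 and 8.002 on eNOS-deficient 11, 15 and 19 and 3.47 to 3.63 on wild-type arrays, with 15 apart from 11 and 19. The labels give no sex, and a difference in sex between the groups cannot be told apart from genotype in any value given here. B cell markers averaged 5.89 on eNOS-deficient 11 and 7.89 to 8.48 on the other arrays. The part of the other differences in the RGS values was not tested.

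At an adjusted p under 0.05 in limma, 5 of 18008 genes (0.0278%) differed between genotypes, and none of the 10 RGS genes was among them. Rgs13 was 2.73-fold lower in eNOS-deficient aorta, and Rgs2 was 1.56-fold higher. For these 2 of 10 genes the eNOS-deficient arrays did not overlap the wild-type arrays, a separation seen in 19.5% of all genes tested, so the share of RGS genes is the background share. By direction, 13.1% of all genes were higher without overlap and 6.47% lower without overlap, against 1 RGS gene each. Rgs13, which had to differ to pass the filter, is counted in these shares, so they are a description. The same 2 genes had an unadjusted p under 0.05, as had 11.6% of all genes (7.86% higher and 3.72% lower). With arrays centred on their medians, genes at an unadjusted p under 0.05 went from 1415 higher and 669 lower to 2028 higher and 388 lower. Differences were positive for 7 of the 10, beside 56.6% of all genes tested, and their median was 0.17 log2 beside 0.036. Without eNOS-deficient 19 that median was -0.017.

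**Figure D1:**
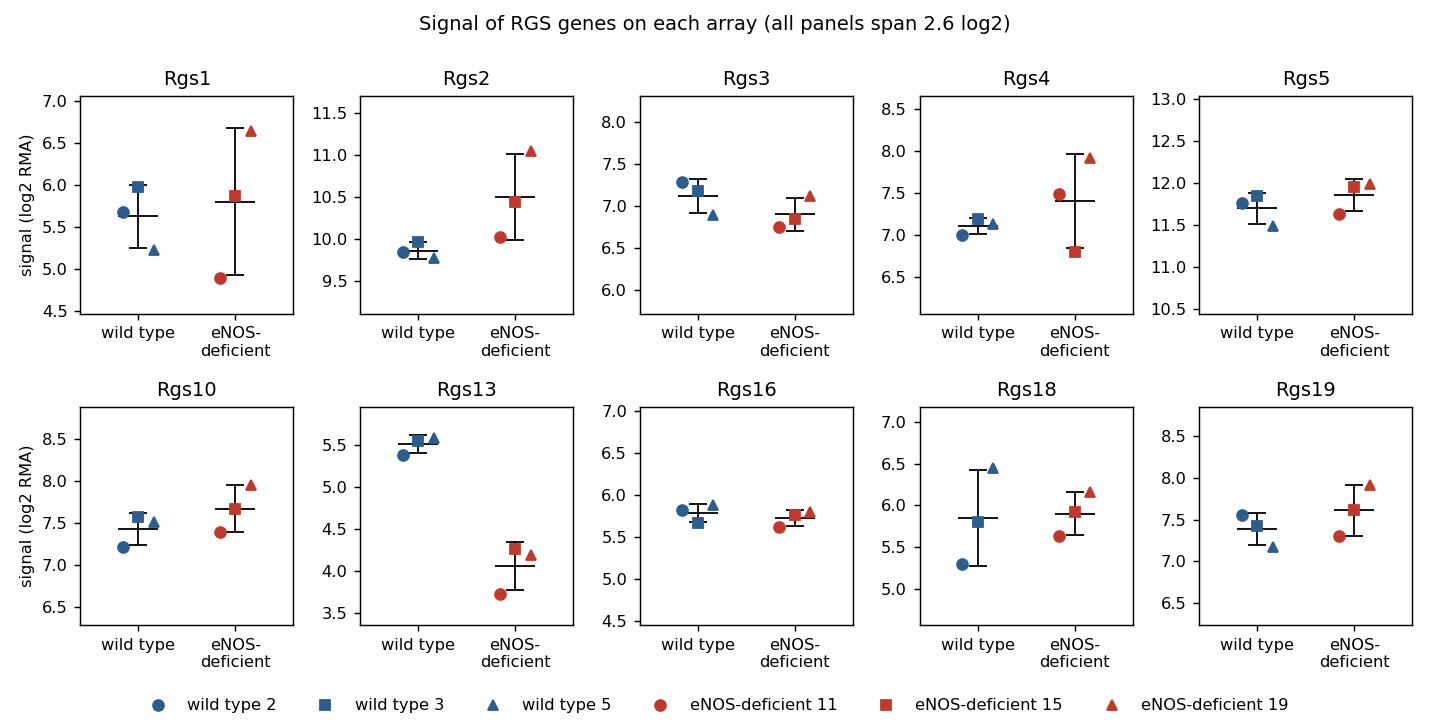
Signal (log2 RMA, y axis) of the 10 RGS genes on each array, with blue symbols for wild type, red for eNOS-deficient aorta, and bars for the mean and SD of 3 arrays; every panel spans the same log2 range. Rgs13 at 3.73 to 4.26 lies wholly below wild type, Rgs2 at 10.02 to 11.04 lies wholly above it, and the groups overlap in the other 8 panels.

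Rgs13 encodes a short R4 protein known from germinal centre B cells and mast cells. Its signal was 3.73, 4.26 and 4.20 on eNOS-deficient 11, 15 and 19 and 5.39, 5.55 and 5.59 on wild type 2, 3 and 5. All eNOS-deficient values lay under the dim level, and the nearest arrays of the genotypes stood 1.13 log2 apart. The means were 4.06 ± 0.29 (SD, n = 3) and 5.51 ± 0.11, a difference of -1.45 log2 (standard error 0.17, 95% interval -1.84 to -1.06) that missed the threshold over all genes (limma adjusted p = 0.1). The two-sided exact permutation p was 0.1, the smallest that 3 arrays against 3 allow. Because the lower level is close to background, the size of the difference is uncertain, and a gene that passes the filter only through its higher group had to differ. With arrays weighted by their estimated quality the difference was -1.31 and passed the test (limma adjusted p = 0.0309). Those weights also raised the genes at an unadjusted p under 0.05 (limma) from 2084 to 3427 of 18008. Over all 13 alternatives the Rgs13 difference ran from -1.55 to -1.24 with limma adjusted p from 0.0309 to 0.486, and it passed in that 1 alone.

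Rgs13 is known from several cell types, and the markers of each are given beside it. The B cell list (11 of 12 genes measured) averaged 5.89, 8.11 and 8.37 on eNOS-deficient 11, 15 and 19 and 7.89 to 8.48 in wild type. All 11 of its genes had negative differences, with a median of -0.60 log2, and all with overlap. None of its genes lay under the dim level on every array. Without eNOS-deficient 11, the array with the lowest B cell mean, the Rgs13 difference was -1.28 and that of the B cell list mean 0.12. Of 8 measured germinal centre genes, Gcsam and Mybl1 were lower without overlap and Fas was higher, and the list averaged 6.57 to 6.98 and 6.90 to 7.05. Mast cell markers averaged 6.18 to 6.32 on eNOS-deficient and 5.93 to 6.04 on wild-type arrays. Of 11 mast cell genes tested, 7 had positive and 4 negative differences, with a median of 0.076 log2. The 3 higher without overlap were Cma1, Mcpt4 and Tpsb2, by 0.83, 1.07 and 0.54 log2. Fcer1a, which encodes the binding chain of the mast cell IgE receptor, lay under the dim level on every array. Of 9 measured dividing-cell genes, 8 were lower without overlap. Their list averaged 5.33, 5.63 and 5.79 against 6.07, 6.30 and 6.28, with none of the 9 under the dim level on every array. Of all genes tested, 6.47% were lower and 13.1% higher without overlap. In whole aorta, fewer cells of a type and less RNA per cell cannot be told apart, and the part of B cells, mast cells and dividing cells in the Rgs13 difference was not tested.

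Among 15311 named genes compared, those with the pattern most like Rgs13 over the 6 arrays included genes of dividing cells. Likeness was the root mean square distance between values centred on the mean of each gene, and Rgs13 itself deviated by 0.75 log2 from its mean. The closest was Mki67, the proliferation marker Ki-67, at a distance of 0.22 log2. Next came Snhg17, which hosts small nucleolar RNAs, at 0.32, Top2a, the topoisomerase of dividing cells, at 0.34, and Mybl1, a Myb family transcription factor, at 0.34. Being chosen for this likeness fixes their direction, and the difference was -1.25 log2 for Mki67.

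Rgs2, which encodes the RGS protein most selective for Gq, was the RGS gene with the largest positive difference. It measured 10.02, 10.44 and 11.04 on eNOS-deficient 11, 15 and 19 and 9.84, 9.96 and 9.77 on wild type 2, 3 and 5. The eNOS-deficient arrays spread over 1.02 log2 and the wild-type arrays over 0.19, and the lowest eNOS-deficient array stood only 0.062 above the highest wild-type array. The difference of 0.64 log2 (standard error 0.25, 95% interval 0.067 to 1.22) did not pass over all genes (limma adjusted p = 0.39, two-sided exact permutation p = 0.1). It was 0.37 without eNOS-deficient 19 and 0.88 without eNOS-deficient 11. After repeated quantile normalization it was 0.55 and the groups overlapped. A dimmer Rgs2 probe set near the dim level gave 4.48, 4.63 and 4.55 against 4.03, 4.23 and 4.40, a difference of 0.33 without overlap (two-sided exact permutation p = 0.1).

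Among marker lists that could touch Rgs2, smooth muscle genes averaged 9.61, 9.40 and 9.69 in eNOS-deficient aorta and 9.40, 9.23 and 9.15 in wild type, with 6 of 11 higher without overlap and none lower. Fibroblast genes averaged 9.43 to 9.64 against 8.70 to 9.18, with 6 of 10 higher without overlap, and macrophage genes 7.97 to 8.31 against 7.22 to 7.49, with 9 of 12. Of all genes tested, 13.1% were higher without overlap. Smooth muscle and macrophage genes had their highest means on eNOS-deficient 19, the array where Rgs2 was highest too, and fibroblast genes on eNOS-deficient 11. Within that genotype the smooth muscle and macrophage means were lowest on 15, whereas Rgs2 was lowest on 11. No gene of the 3 lists lay under the dim level on every array, and their part in the Rgs2 difference was not tested. Genes with the pattern nearest to Rgs2 were Cyp1b1, a cytochrome P450 enzyme of the vessel wall, at 0.096 log2, Igsf6, an immunoglobulin superfamily gene, at 0.13, Foxp3, the regulatory T cell factor, at 0.13, and Bcl2, the inhibitor of apoptosis, at 0.14. Rgs2 itself deviated by 0.44 from its mean.

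Rgs5, a marker of pericytes and arterial smooth muscle, gave different answers on its probe sets. The brightest measured 11.64, 11.95 and 11.99 on eNOS-deficient 11, 15 and 19 and 11.76, 11.84 and 11.49 on wild type 2, 3 and 5, so the groups overlapped. The difference there was 0.16 log2 (95% interval -0.20 to 0.52, limma adjusted p = 0.734). A dimmer probe set measured 8.24, 8.48 and 8.32 against 7.61, 7.88 and 7.29, without overlap. Its difference was 0.75 log2 (standard error 0.17), which did not pass when every single-symbol probe set was tested (limma adjusted p = 0.285, two-sided exact permutation p = 0.1). Averaging both probe sets gave 0.45, without overlap and not past the threshold (limma adjusted p = 0.364). Which exons or strand each probe set reads is not given here, and the reason for the gap was not tested. Pericyte markers averaged 7.62 to 7.72 on eNOS-deficient and 7.28 to 7.69 on wild-type arrays. Of 10 pericyte genes tested, 4 were higher and 1 lower without overlap, beside 13.1% and 6.47% of all genes tested. Of 11 smooth muscle genes, 6 were higher without overlap. The part of these cells in the Rgs5 values was not tested.

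**Figure D2:**
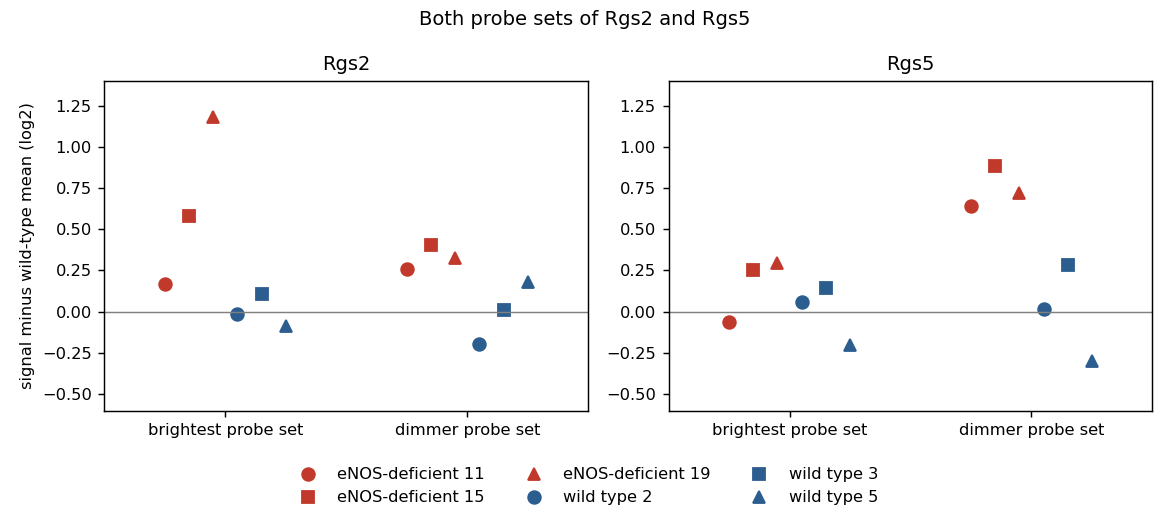
Signal minus the wild-type mean (log2, y axis) for the brightest and the dimmer probe set of Rgs2 (left) and Rgs5 (right), 1 point per array, blue for wild type and red for eNOS-deficient aorta. The eNOS-deficient arrays lie above all wild-type arrays for both Rgs2 probe sets and for the dimmer Rgs5 probe set, and overlap them for the brightest Rgs5 probe set.

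Rgs4, which restrains Gq and Gi signals in heart, nerve and smooth muscle, differed more among eNOS-deficient arrays than between genotypes. It measured 7.49, 6.80 and 7.92 on eNOS-deficient 11, 15 and 19 and 6.999, 7.19 and 7.14 on wild type 2, 3 and 5. Both the highest and the lowest of the 6 values were eNOS-deficient, and the difference of 0.30 log2 (95% interval -0.33 to 0.92) did not pass (limma adjusted p = 0.714). It was 0.60 without eNOS-deficient 15 and 0.039 without eNOS-deficient 19. The mean of Schwann cell and neuron markers (8 of 11 measured) had the same high and low arrays, at 7.69, 6.92 and 8.43 against 7.51 to 7.64. The neuronal genes Th, Dbh, Snap25, Prph and Uchl1 each had these extremes. For the glial genes Mbp, Sox10 and S100b 1 or both extremes lay on wild-type arrays. The part of these cells in the Rgs4 values was not tested.

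Rgs3 and Rgs16, the remaining R4 genes of wide expression, differed little. Rgs3 measured 6.75, 6.84 and 7.13 on eNOS-deficient 11, 15 and 19 and 7.28, 7.18 and 6.90 on wild type 2, 3 and 5, a difference of -0.21 log2 (95% interval -0.59 to 0.16, limma adjusted p = 0.645). Wild type 5 lay inside the eNOS-deficient range, and without it the Rgs3 groups did not overlap, as was so for 35.3% of all genes tested, and the difference was -0.33. Rgs16, which is known to be induced in activated cells, was the steadiest of the 10, at 5.62, 5.76 and 5.80 against 5.81, 5.67 and 5.88. Its interval of -0.35 to 0.22 around a difference of -0.063 (limma adjusted p = 0.887) spans 0, and the sign turned to 0.0026 with arrays centred on their medians.

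Rgs1, which dampens chemokine responses of B and T cells, varied most within a genotype. It measured 4.89, 5.87 and 6.64 on eNOS-deficient 11, 15 and 19, a range of 1.75 log2, and 5.68, 5.97 and 5.23 on wild type 2, 3 and 5. The eNOS-deficient arrays held both extremes, and the difference of 0.17 (95% interval -0.82 to 1.16, limma adjusted p = 0.91) was -0.25 without eNOS-deficient 19, 0.63 without eNOS-deficient 11 and -0.028 without wild type 5. T and NK cell markers (10 of 12 measured) had the same lowest and highest arrays, with means of 5.30, 6.98 and 7.29 against 6.44, 6.68 and 6.45. Leukocyte chemoattractant receptors, chemokine receptors among them, likewise averaged 6.07, 6.57 and 6.94 against 6.41 to 6.57. The part of lymphocytes in the Rgs1 values was not tested.

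Rgs18, known from platelets and their precursors, had its extremes in wild type. It measured 5.64, 5.92 and 6.16 on eNOS-deficient 11, 15 and 19 and 5.30, 5.80 and 6.45 on wild type 2, 3 and 5, with the eNOS-deficient arrays inside the wild-type range. The difference of 0.053 log2 (95% interval -0.63 to 0.73, limma adjusted p = 0.964) was -0.22 without wild type 2, 0.35 without wild type 5 and -0.072 without eNOS-deficient 19. Platelet and megakaryocyte markers (9 of 12 measured) averaged 6.04, 6.21 and 6.63 against 6.01, 6.33 and 6.88. Their lowest array was wild type 2 and their highest was wild type 5, as for Rgs18. Gene by gene, 6 of the 9 were highest on wild type 5, 3 were lowest on wild type 2, and 2 showed both. The part of platelets in the Rgs18 values was not tested.

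Rgs10 and Rgs19, of other subfamilies and abundant in myeloid cells and in many tissues respectively, gave small positive differences with overlap. Rgs10 measured 7.39, 7.66 and 7.95 on eNOS-deficient 11, 15 and 19 and 7.21, 7.57 and 7.51 on wild type 2, 3 and 5, a difference of 0.24 log2 (95% interval -0.18 to 0.66, limma adjusted p = 0.648). Rgs19, also named GAIP, measured 7.31, 7.61 and 7.91 against 7.55, 7.43 and 7.17, a difference of 0.23 (95% interval -0.21 to 0.66, limma adjusted p = 0.682). For both, eNOS-deficient 11 lay within the wild-type range and the other eNOS-deficient arrays above it. Without eNOS-deficient 11 neither gene overlapped, as was so for 29.4% of all genes tested, with differences of 0.38 for Rgs10 and 0.38 for Rgs19. Macrophage genes averaged 7.97 to 8.31 against 7.22 to 7.49, with 9 of 12 higher without overlap, beside 13.1% of all genes tested. The part of macrophages in the Rgs10 values was not tested.

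The RGS genes shared an ordering of the eNOS-deficient arrays. Within that genotype, array 19 held the highest value for 9 of 10 genes, Rgs13 being the exception, and array 11 the lowest for 9 of 10, Rgs4 being the exception. Both held for 8 of 10, beside 21.4% of all genes tested, and the genes are not independent of each other because they share the arrays. This ordering is the one most frequent among the 10 genes themselves, so the comparison with all genes is only a description. The means of 8 of 19 marker lists had array 19 highest and 11 lowest too: endothelial, B cell, germinal centre B cell, T and NK cell, neutrophil, platelet, erythroid (a single gene) and dividing cell. Their part in this ordering was not tested.

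**Figure D3:**
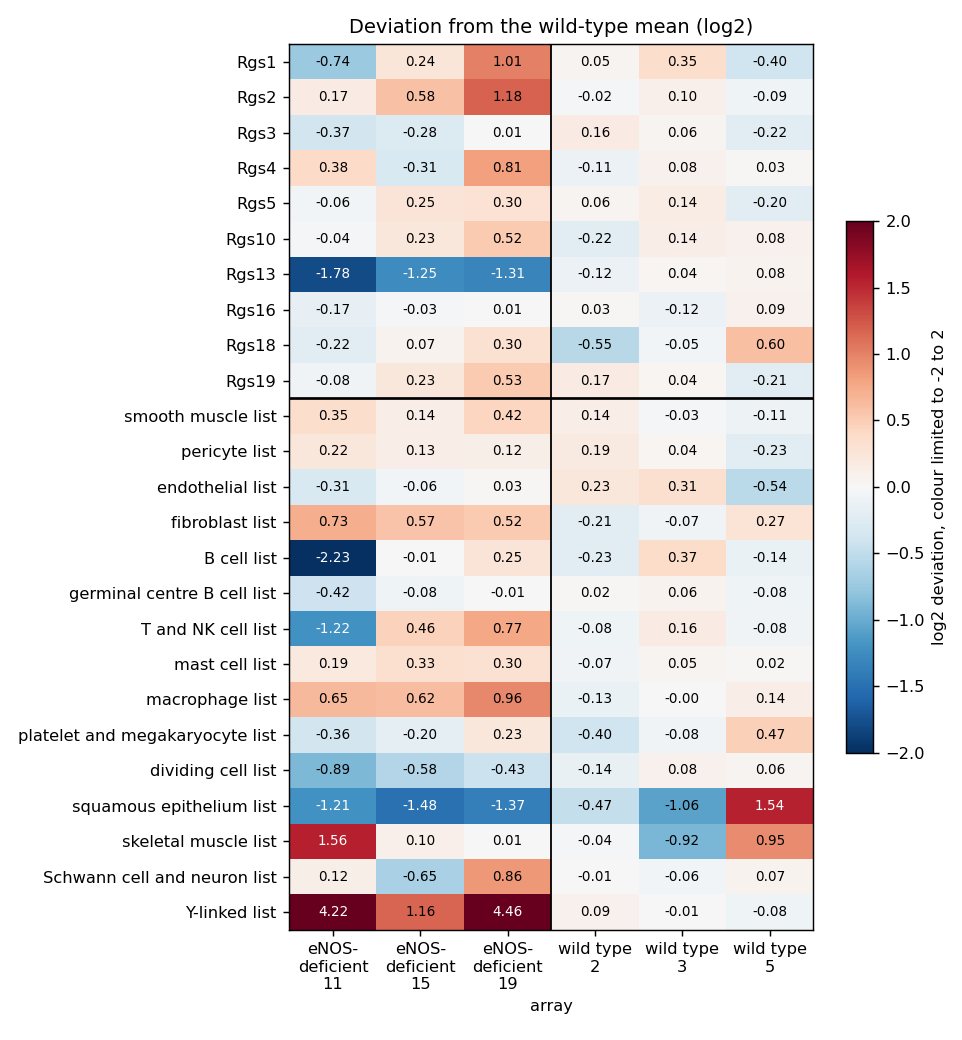
Deviation of each array (columns) from the wild-type mean in log2, for the 10 RGS genes (upper rows) and for the mean of each marker list (lower rows); red is higher, blue is lower, and colour is limited at 2 log2 while the printed number is not. Rgs13 stands at -1.78, -1.25 and -1.31 on the eNOS-deficient arrays, where the B cell list stands at -2.23, -0.014 and 0.25 and the dividing cell list at -0.89, -0.58 and -0.43.

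In the RefSeq gene table (GRCm38.p6), 7 of the 10 genes lie on chromosome 1. Rgs2, Rgs13, Rgs1, Rgs21 and Rgs18 are consecutive coding genes, and their differences were 0.64, -1.45, 0.17, 0.033 and 0.053 log2, so Rgs13 alone was negative among them. Rgs21, a taste-cell RGS gene, lay under the dim level on every array. Rgs5 and Rgs4 are also adjacent, with differences of 0.16 and 0.30, as are Rgs8 and Rgs16, with -0.25 and -0.063.

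Among 16 other genes with an RGS domain or a partner role, 13 were tested, 7 with positive and 6 with negative differences, and none passed (limma, adjusted p under 0.05). Rgs17, an RZ subfamily gene, measured 5.82 ± 0.053 (SD, n = 3) without eNOS and 5.46 ± 0.12 with it (limma adjusted p = 0.337), the only gene of this list at an unadjusted p under 0.05. Rgs8, a neural R4 gene, measured 5.46 ± 0.11 against 5.71 ± 0.12, lower without overlap (limma adjusted p = 0.489). Rgs6, of the R7 subfamily that binds Gnb5, differed by -0.32 log2 and Axin1, a Wnt pathway scaffold with an RGS domain, by 0.24, both with overlap. The median of this list was 0.03, beside 0.036 for all genes tested.

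**Figure D4:**
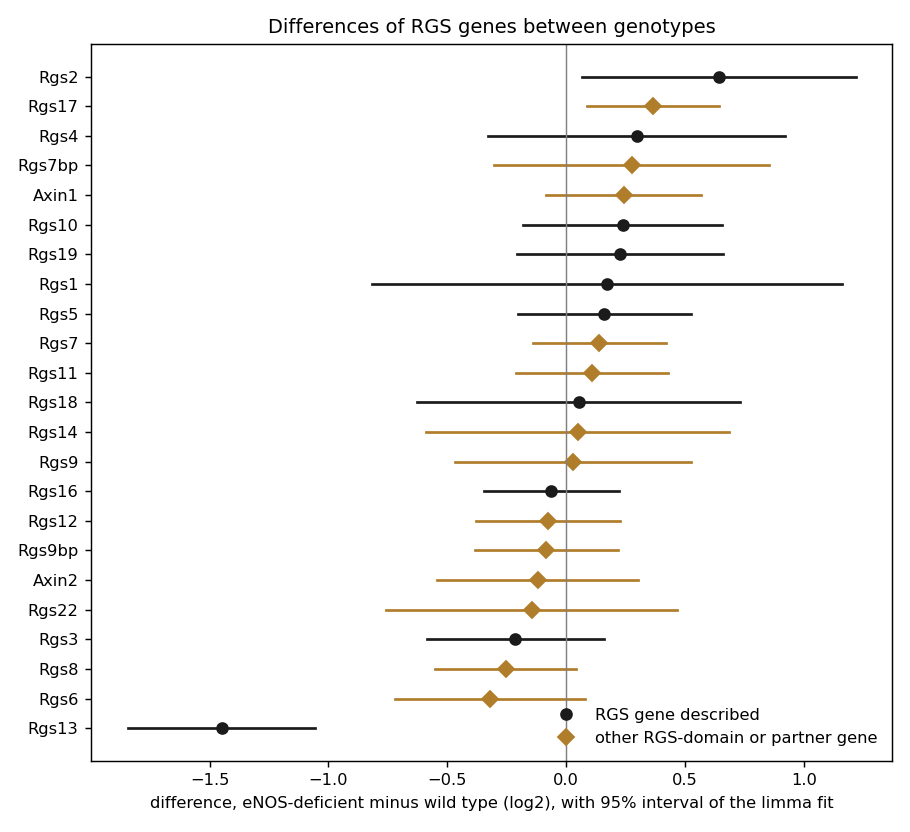
Difference between eNOS-deficient and wild-type aorta (log2, x axis) for the 10 RGS genes (black circles) and 13 other RGS-domain or partner genes (brown diamonds), with the 95% interval of the limma fit. The interval excludes 0 for Rgs13, Rgs2 and Rgs17, and none of these genes passed after adjustment over all genes.

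The other parts of the pathway were read from 7 lists, the 13 genes above among them. Of 119 genes listed, 104 were measured and 99 tested. None passed in limma, and 9 had an unadjusted p under 0.05 (8 higher and 1 lower, 9.09% beside 11.6% of all genes). For 18 the groups did not overlap (18.2%, beside 19.5% of all genes, 13.1% higher and 6.47% lower). Of the G alpha subunits that RGS proteins act on, 0 of 14 reached an unadjusted p under 0.05 (limma) and 0 passed after adjustment. Gnaq, which couples vasoconstrictor receptors to phospholipase C, differed by 0.21 log2, Gnai3, an inhibitory subunit, by 0.20, Gnao1, another inhibitory subunit, by 0.13 and Gnat1, the rod transducin subunit, by -0.25. Among G beta and gamma subunits, Gng5 measured 9.15 ± 0.38 against 8.50 ± 0.29 and Gngt2 6.76 ± 0.13 against 6.31 ± 0.25, both higher without overlap (limma adjusted p = 0.369 for each). Gng7 differed by 0.18, also higher without overlap, and Gnb5 by 0.24 with overlap. Receptor kinases and arrestins, the other route that ends receptor signals, had 2 of 11 higher without overlap: Grk5, a receptor kinase, at 8.27 ± 0.044 against 7.78 ± 0.45, and Arrb1, beta-arrestin 1, at 8.73 ± 0.16 against 8.42 ± 0.19 (limma adjusted p = 0.443 and 0.48). Grk3, another receptor kinase, and Gpsm3, a modulator of Gi, differed by 0.23 and 0.19.

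Effectors downstream of the G proteins gave 0 of 16 at an unadjusted p under 0.05 (limma), and 0 after adjustment. Prkg1, the cyclic GMP-dependent kinase, measured 7.33 ± 0.36 against 6.90 ± 0.21, and Rhoa, the small GTPase that sustains contraction, 11.92 ± 0.076 against 11.68 ± 0.17, both higher without overlap (limma adjusted p = 0.471 and 0.509). Arhgef25, an exchange factor for RhoA, differed by 0.33 log2 and Adcy9, an adenylyl cyclase, by 0.27, both with overlap. Of 22 receptors for vasoconstrictors listed, 16 were measured, and Ednra, Adra1a, Adra1d, Adra2a, F2rl1 and Ptger1 were not. Of those 16, 5 were higher and 1 lower without overlap, beside 13.1% and 6.47% of all genes tested. P2ry6, a receptor for UDP, measured 7.69 ± 0.22 against 6.94 ± 0.16, and Htr2b, a serotonin receptor, 6.09 ± 0.26 against 5.29 ± 0.36 (limma adjusted p = 0.216 and 0.289). Htr2a, the other Gq-coupled serotonin receptor, measured 7.18 ± 0.19 against 6.46 ± 0.14 (limma adjusted p = 0.208). Agtr1b, an angiotensin II receptor, was the lower one, at 5.49 ± 0.26 against 6.14 ± 0.25 (limma adjusted p = 0.304). Agtr1a, the brighter angiotensin II receptor of this list, differed by 0.29 log2 with overlap (limma adjusted p = 0.704). Smooth muscle genes had 6 of 11 higher without overlap and macrophage genes 9 of 12. The part of these cells in the vasoconstrictor receptor values was not tested. Of 15 leukocyte chemoattractant receptors, 3 were higher without overlap: C5ar1 and C3ar1, the anaphylatoxin receptors, by 0.73 and 0.69 log2, and Ccr2, the monocyte chemokine receptor, by 0.15. Ccr1, another chemokine receptor, differed by 0.24 with overlap. The macrophage list, 7.97 to 8.31 against 7.22 to 7.49 and 9 of 12 genes higher without overlap, moved with these receptors, and its part was not tested.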

How the data were processed

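Aortic RNA was read on 6 arrays, 3 for each genotype. The deposited log2 values came from RMA in Affymetrix Expression Console 1.3.1, per the submitters' processing notes, starting at 300 ng RNA (labels' protocol), and were used as deposited. Of 41345 probe sets, 23525 named exactly 1 gene. The brightest probe set stood for each of 22184 genes, and genes with a mean under the 25th percentile (4.38 log2) were left out. limma 3.58.1 in R 4.3.3 (lmFit, eBayes, two-sided, no covariates) compared the genotypes, with Benjamini-Hochberg adjustment over 18008 genes at 0.05. Single genes were also compared by exact permutation with SciPy 1.17.1. Plots were drawn with matplotlib 3.10.9.

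Named genes were all 10 RGS genes, Nos3, the up to 4 genes of each pathway list with the smallest p, the 4 nearest patterns to each RGS gene without overlap (predicted genes, microRNAs, chemosensory receptors and pseudogenes passed over), and markers a sentence turns on. Agtr1a was added beside Agtr1b. Members and lists were chosen with earlier results of these data known. Sequences are from RefSeq (GRCm38.p6). The files name no build.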

Additional observations from a re-analysis of the deposited data

How the results depend on the processing

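With 6 arrays, 5 genes passed in limma. That count was 3 with no dim filter, 2 with the mean of all probe sets, 2 after repeated quantile normalization, 119 with array weights, 8 at an adjusted p of 0.1, 0 to 6 with 1 array left out, and 2 with eNOS-deficient 11 and wild type 5 left out together, a choice made after seeing the data. No RGS gene passed except Rgs13, so that 1 passed with array weights (-1.31) and 1 at a threshold of 0.1. Of the pathway lists 1 gene passed with array weights (Htr2b, 0.95). RGS genes without overlap numbered 1 at the 50th percentile filter, which removes Rgs13, and 1 after repeated quantile normalization, where Rgs2 overlapped. They numbered 2 to 5 of 10 with 1 array left out, where 26.4% to 35.3% of all genes did not overlap. The 5 came without eNOS-deficient 11 (Rgs2, Rgs5, Rgs10, Rgs13 and Rgs19; 29.4% of all genes). Without that array and wild type 5 they numbered 7, beside 48% of all genes, since fewer arrays separate more often. Signs turned for Rgs16 with centring (0.0026) and, with both arrays left out, for Rgs16 (0.037) and Adcy9 (-0.018). With 1 array left out Rgs1 ran from -0.25 to 0.63 and Rgs18 from -0.22 to 0.35. The cause of these changes was not tested. Of 543 single-gene values under an alternative, 534 kept their sign and their side of the threshold. No paired analysis was possible because the sample numbers of the genotypes are not shared.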
